A study of Xenopus laevis x Xenopus muelleri with 8 samples.

Results

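The cytosolic ribosomal protein genes were taken as all probe sets whose platform annotation listed a single gene symbol of the rpl, rplp or rps families. This gave 53 probe sets for 44 genes out of the 11485 probe sets with deposited values. These 11485 are called all probe sets of the array below, and whether the array carries others was not checked. The large subunit was represented by 34 of these probe sets and the small subunit by 19. The ending .L was carried by 25, the ending .S by 27, and 1, that of rps9, had no ending. A further 7 probe sets listed a ribosomal protein symbol among several symbols and were not used here. Both rpl22l1.L and rpl3l.L are paralogs rather than standard subunits of the ribosome, and the mammalian counterpart of rpl3l.L is a muscle form of rpl3.

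The cytosolic ribosome carries a large subunit, which forms peptide bonds and releases the new chain through an exit tunnel, and a small subunit, which reads the messenger RNA. Each ribosomal protein is present at about a single copy per ribosome, except for the acidic stalk proteins, and most vertebrate ribosomal protein messenger RNAs begin with a pyrimidine tract through which their translation is regulated as a group. The growing frog oocyte builds a large store of ribosomes that the early embryo then uses. Xenopus laevis is allotetraploid, and many of its genes persist as homeologs, the copies derived from a longer (.L) and a shorter (.S) set of chromosomes.

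The ovaries came from sexually mature hybrid frogs with a X. laevis mother from the Cape of South Africa and a X. muelleri father from Swaziland, raised from the egg to adulthood under a 12L:12D photoperiod. By their titles 4 ovaries were normal and 4 were sex-reversed, each a biological replicate on 1 Affymetrix X. laevis array, and the sources used here do not say how the animals were sex-reversed. Each value is an expression value per probe set, made by robust multi-array averaging (RMA) and read here as log2. The p-values cover only the spread among these 8 ovaries. The number of arrays limits the precision, and the 95% interval of a member's difference reached a median of 0.404 log2 to either side.

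The source names said testis for all 8 arrays, against the titles and descriptions, which said ovary. Most oocyte markers were bright, with the egg envelope gene zp2.L at 10.97 in normal and 10.87 in sex-reversed ovary. The lowest was zar2.S, at 6.42 and 6.85. The germ cell gene ddx4.L, which by itself does not tell ovary from testis, was at 10.41 and 10.23. Of 7 testis and sperm probe sets 5 lay below the lower quartile of all probe-set means (4.06). Sex-reversed replicate 4 was in addition called normal in its source name and was grouped by its title. The arrays were clustered on the probe sets outside the ribosomal list, with the number of sets fixed at 2. These array sets crossed the groups. The first held normal replicates 1 and 4 with sex-reversed replicates 3 and 4, and the other normal replicates 2 and 3 with sex-reversed replicates 1 and 2. Correlations between arrays ran from 0.954 to 0.972 within these sets and from 0.942 to 0.952 between them. They come from the same probe sets as the clustering, so they describe the split and do not test it.

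The comparison of sex-reversed with normal ovary gave lower values for most ribosomal protein probe sets, by a small amount. Of the 53 probe sets 46 lay below 0 (sex-reversed minus normal), or 86.8%, against 49.3% of all probe sets on the array. The median difference was −0.22 log2 over the members and 0.00 over all probe sets, and the middle of the members ran from −0.36 to −0.12 (quartiles). No member passed in limma after Benjamini-Hochberg adjustment over all 11485 probe sets, as no probe set of the array did (0%, smallest adjusted p = 0.434, 364 lower and 369 higher at an unadjusted p of 0.05). The smallest adjusted p among members was 0.636. At an unadjusted p of 0.05 in limma 9 members were on the lower side, or 17.0%, against 3.17% of all probe sets, and 0 on the higher side, against 3.21%. In 7 members, or 13.2%, all sex-reversed values lay below all normal values, against 1.96% of all probe sets, and in 0 they lay above, against 2.1%. The probe sets share the same 8 arrays, so these counts are not so many separate observations.

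**Figure D1:**
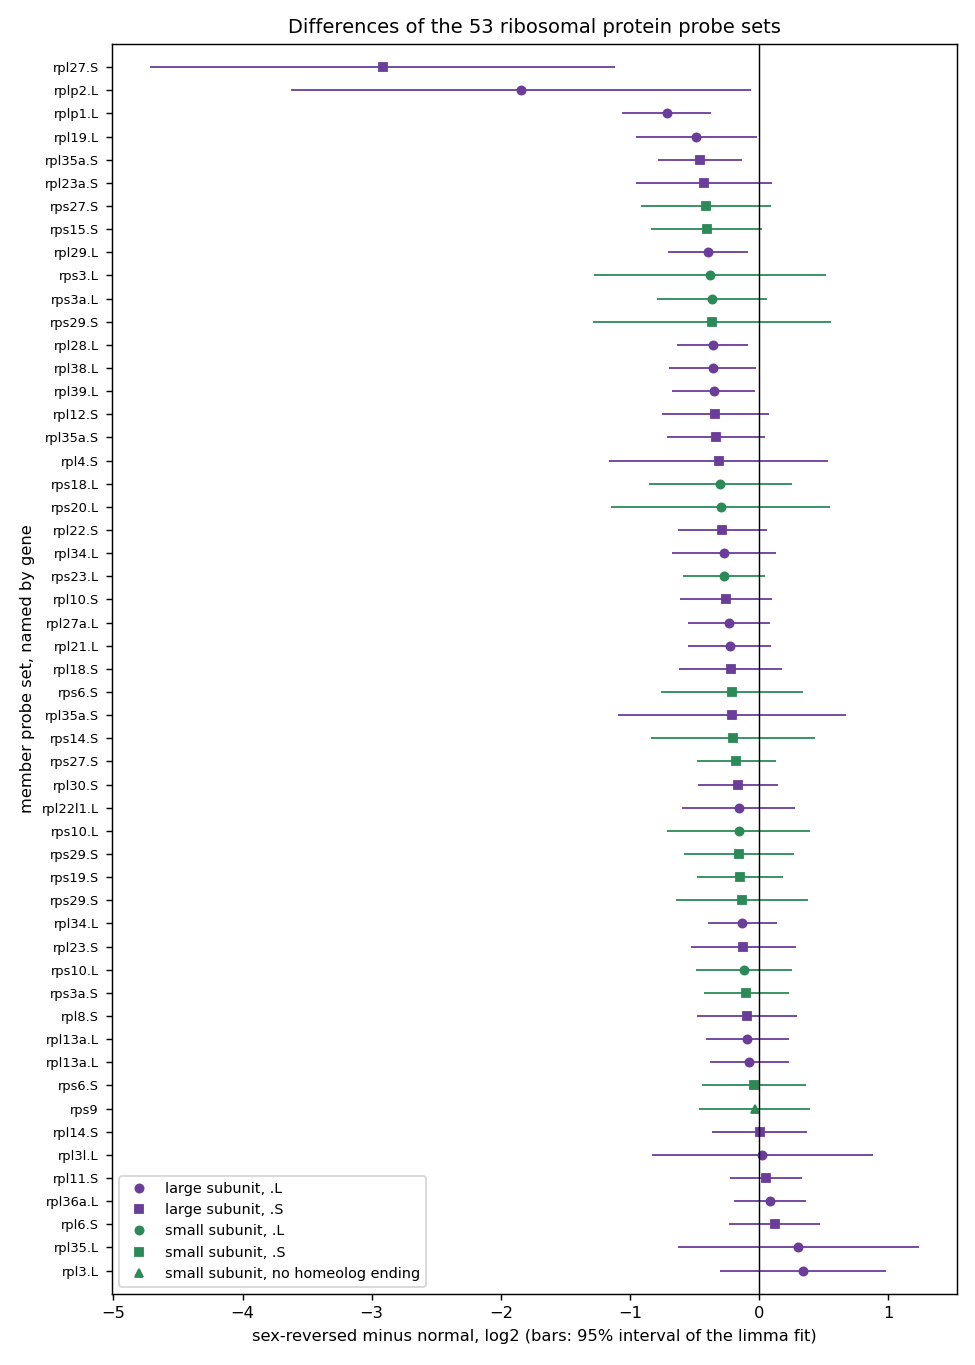
Sex-reversed minus normal difference (log2) of each of the 53 probe sets, named by gene, with the 95% interval of the limma fit. Purple marks the large and green the small subunit, circles .L, squares .S and the triangle the gene without an ending; 46 points lie left of 0, and the 9 intervals that leave 0 out are all purple.

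The counts by p depended on single arrays, and the count below 0 and the median did so less. With the replicate number as a block 3 members were on the lower side, against 2.95% of all probe sets. With sex-reversed replicate 4 counted as normal, as its source name said, 12 members were, against 3.67%, and 12 did not overlap, against 2.64%. Without sex-reversed replicate 3 the lower side held 4 members at an unadjusted p of 0.05 in limma (2.89% of all probe sets). Without sex-reversed replicate 4 it held 11, against 3.62% of all probe sets, and groups without overlap held 16 members, against 4.01%. Without replicate 3 the share of all probe sets without overlap was 3.26%, for 7 members. With each of the 8 arrays left out in turn, between 45 and 47 members lay below 0 and the median ran from −0.27 to −0.20.

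The mean over the members was lower on each sex-reversed array, though little so on sex-reversed replicate 2. The median difference was below 0 in both array sets. The mean over the 53 probe sets was 9.10, 9.06, 9.14 and 8.97 in normal replicates 1 to 4 and 8.72, 8.95, 8.71 and 8.74 in sex-reversed replicates 1 to 4. All 4 sex-reversed means lay below all normal means, with sex-reversed replicate 2 nearest to them. On sex-reversed replicates 1 to 4, 46, 35, 41 and 41 of the 53 members lay below the normal mean of their probe set. For normal replicates 1 to 4 these counts were 26, 32, 17 and 35, so sex-reversed replicate 2 matched normal replicate 4. Over all 11485 probe sets the counts on the 8 arrays ran from 5624 to 5810. The group means were 9.07 ± 0.07 (SD, n = 4) and 8.78 ± 0.11 (SD, n = 4), a difference of −0.29. Over all 11485 probe sets the same means were 6.13 ± 0.01 (SD, n = 4) and 6.12 ± 0.00 (SD, n = 4). Within the array set of normal replicates 1 and 4 the median difference of the members was −0.18, with 41 of 53 below 0. Within the other set it was −0.23, with 42 of 53 below 0.

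**Figure D2:**
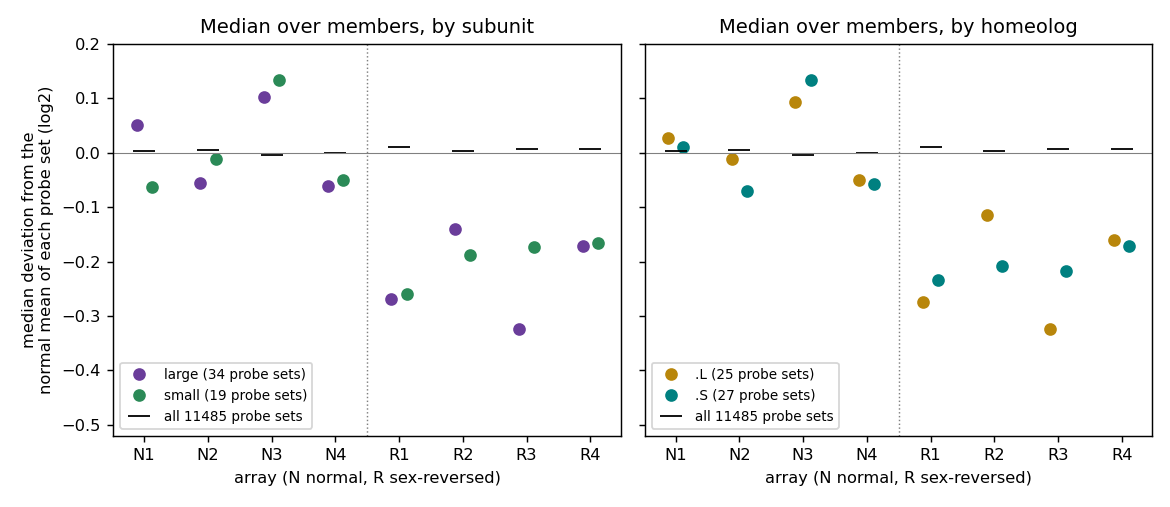
Median deviation of the members from each probe set's normal mean (log2, vertical axis) on each of the 8 arrays, N for normal and R for sex-reversed, by subunit on the left and by homeolog ending on the right; black dashes give the same for all 11485 probe sets. All coloured points of the sex-reversed arrays lie between −0.32 and −0.11 and those of the normal arrays between −0.07 and 0.13. The black dashes stay within 0.01 of 0.

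Which array was low or high differed from gene to gene. Sex-reversed replicates 1, 3 and 4 each held the lowest of the 8 values in 12 members, sex-reversed replicate 2 in 7, and the 4 normal arrays in 1, 3, 1 and 5. Over all 11485 probe sets the lowest lay on sex-reversed replicates 1 to 4 in 1384, 1430, 1196 and 1474. For the normal arrays these counts were 1667, 1352, 1687 and 1295. Normal replicate 3 held the highest value in 23 members, and in 1727 of all 11485 probe sets. Within the sex-reversed group the highest value lay on replicate 2 in 23 members and on replicate 4, the array with the conflicting source name, in 20, against 7 for replicate 1 and 3 for replicate 3. Over all probe sets these counts were 2779, 2701, 2772 and 3233 for sex-reversed replicates 1 to 4, most often replicate 4. After the group means were removed, pairs of members had a median correlation of 0.08 across the 8 arrays. Among the 31 members with a mean of 9 or more it was 0.27, and between these and the other bright probe sets it was −0.01. These are descriptions, since the probe sets share arrays and some share transcripts.

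The median signal of the ribosomal protein probe sets was 10.05, against 6.02 for all probe sets, with a range from 3.04 to 13.04. Probes differ in affinity, so these signals do not rank transcripts by abundance. The probe set of highest mean was that of rpl10.S, a protein that joins the large subunit late in its maturation. It measured 12.97, 13.08, 13.40 and 13.22 in normal replicates 1 to 4 and 12.81, 12.94, 12.74 and 13.16 in sex-reversed replicates 1 to 4, which overlap (log2 difference −0.26 ± 0.16, SE). The lowest mean belonged to the dimmer probe set of rps6.S, at 2.83, 3.24, 2.68 and 3.82 in normal and 2.91, 2.95, 3.07 and 2.79 in sex-reversed ovary. The sex-reversed values lay within the normal range, and 4 members lay below the lower quartile of all probe sets. Detection above background was not tested, and probe sets with a mean below the median of the array are called dim here.

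Bright probe sets in general lay near 0. Among all 1379 probe sets with a mean of 9 or more, 54.8% lay below 0 and the median difference was −0.02. Of the 31 members this bright 28 lay below 0, or 90.3%, with a median of −0.20. Groups did not overlap on the lower side in 4 of these 31, or 12.9%, against 2.54% of all bright probe sets. At an unadjusted p of 0.05 in limma the lower side held 5 of the 31, against 1.96% of all bright probe sets, and the higher side 0, against 1.89%. The 22 dimmer members had a median of −0.28, with 18 below 0.

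**Figure D3:**
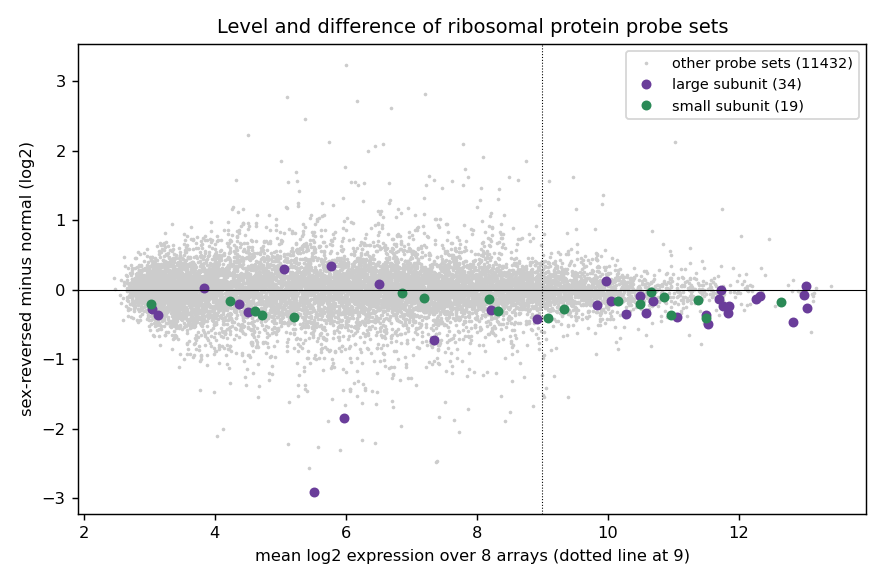
Mean log2 expression over the 8 arrays (horizontal) against the sex-reversed minus normal difference in log2 (vertical) for the 34 large subunit probe sets (purple), the 19 small subunit probe sets (green) and all other probe sets (grey). To the right of the dotted line at 9, 28 of 31 members lie below 0.

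The large subunit held every member that reached an unadjusted p of 0.05, while all small subunit probe sets lay below 0. Of 34 large subunit probe sets 27 lay below 0, with a median of −0.23 and a range from −2.92 to 0.34. Of 19 small subunit probe sets 19 lay below 0, with a median of −0.20 and a range from −0.41 to −0.04. At an unadjusted p of 0.05 in limma the lower side held 9 of 34 large subunit probe sets, or 26.5%, and 0 of 19 of the small subunit, against 3.17% of all probe sets. The difference between the subunits was not tested, because members are not replicates. With a trended robust prior 2 small subunit probe sets reached an unadjusted p of 0.05 (3.16% of all probe sets), and without sex-reversed replicate 4 there were 3 (3.62%). With single arrays left out, 17 to 19 small subunit probe sets lay below 0. With sex-reversed replicate 4 counted as normal 15 of 19 did, and the medians were −0.10 for the small and −0.24 for the large subunit. The array means for the large subunit were 9.38 ± 0.10 (SD, n = 4) and 9.06 ± 0.15 (SD, n = 4), and sex-reversed replicate 2 at 9.27 overlapped normal replicate 4 at 9.25. These means include rpl27.S and rplp2.L, whose differences of −2.92 and −1.84 weigh more on a mean than on a median. Subunit means without them were not computed, so the array means do not rank the subunits. Those for the small subunit were 8.50 ± 0.05 (SD, n = 4) and 8.28 ± 0.07 (SD, n = 4), without overlap.

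**Figure D4:**
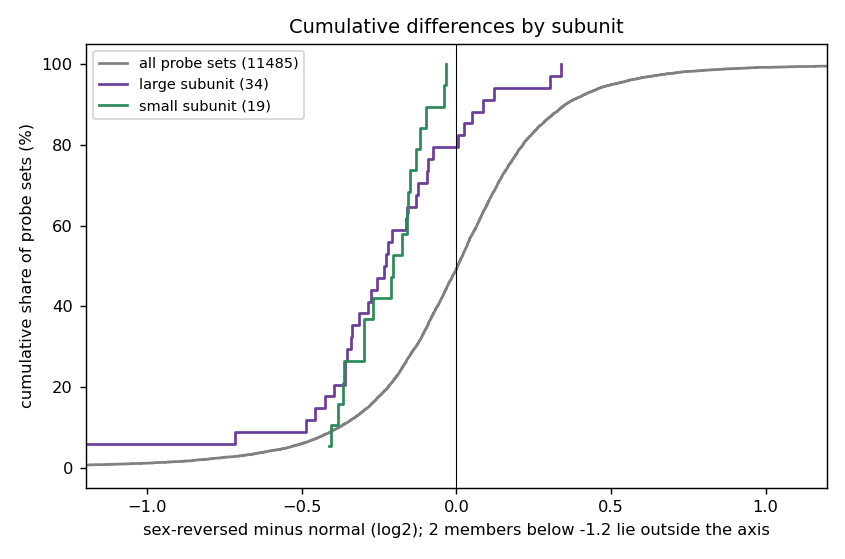
Cumulative share of probe sets (%, vertical) against the sex-reversed minus normal difference (log2, horizontal) for the large subunit (purple), the small subunit (green) and all probe sets (grey). The green line reaches 100% left of 0 and the purple line crosses 0 at 79.4%, while the grey line crosses it at 49.3%; rpl27.S and rplp2.L lie beyond the left edge.

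The stalk of the large subunit, a flexible arm of acidic proteins that recruits the elongation factors, was represented by rplp1.L and rplp2.L. The gene rplp1.L measured 7.69, 7.49, 7.84 and 7.82 in normal replicates 1 to 4 and 7.21, 6.76, 7.00 and 7.00 in sex-reversed replicates 1 to 4. The groups did not overlap, and it was the member of smallest p (log2 difference −0.72 ± 0.15, SE, or 1.64-fold lower; unadjusted p = 0.00111, adjusted p = 0.636 in limma). Its partner rplp2.L measured 7.09, 6.32, 7.04 and 7.11 in normal ovary and 6.68, 6.59, 3.40 and 3.52 in sex-reversed ovary. Only sex-reversed replicates 3 and 4 were low, both of the same array set, while the other pair lay among the normal values. The low values lay below the lower quartile of all probe-set means (4.06). The fitted difference of −1.84 ± 0.78 (SE; adjusted p = 0.779 in limma) thus rested on these 2 arrays. It was −3.64 within their array set and −0.05 within the other. For rplp1.L both sets gave similar values, −0.76 and −0.68. No probe set with deposited values named rplp0 alone.

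The gene rpl27.S, a large subunit protein, had the lowest difference of all 11485 probe sets, and its values fell into 2 levels. It measured 7.11, 6.85, 7.00 and 6.93 in normal replicates 1 to 4 and 3.55, 6.83, 3.23 and 2.60 in sex-reversed replicates 1 to 4. Sex-reversed replicate 2 was at the normal level, and the 3 low arrays came from both array sets. Their values lay below the lower quartile of all probe-set means (4.06), as did the low values of rplp2.L. Both probe sets were dim by their means over the 8 arrays. Their normal means, 6.97 for rpl27.S and 6.89 for rplp2.L, lay above the median of all probe sets (6.02). The sizes of their differences are uncertain because the low values lay in the dim range. The difference was −2.92 ± 0.79 (log2, SE; adjusted p = 0.666 in limma). It was −3.84 without sex-reversed replicate 2, where it passed (adjusted p = 0.00307 in limma). That setting leaves out the only sex-reversed array at the normal level, so its p-value is no support for the difference. Without these 2 probe sets the members had a median difference of −0.21, with 44 of 51 below 0, and the array means were 9.15 ± 0.08 (SD, n = 4) in normal and 8.95 ± 0.07 (n = 4) in sex-reversed ovary. The lowest normal mean, 9.043, lay just above the highest sex-reversed mean, 9.036.

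**Figure D5:**
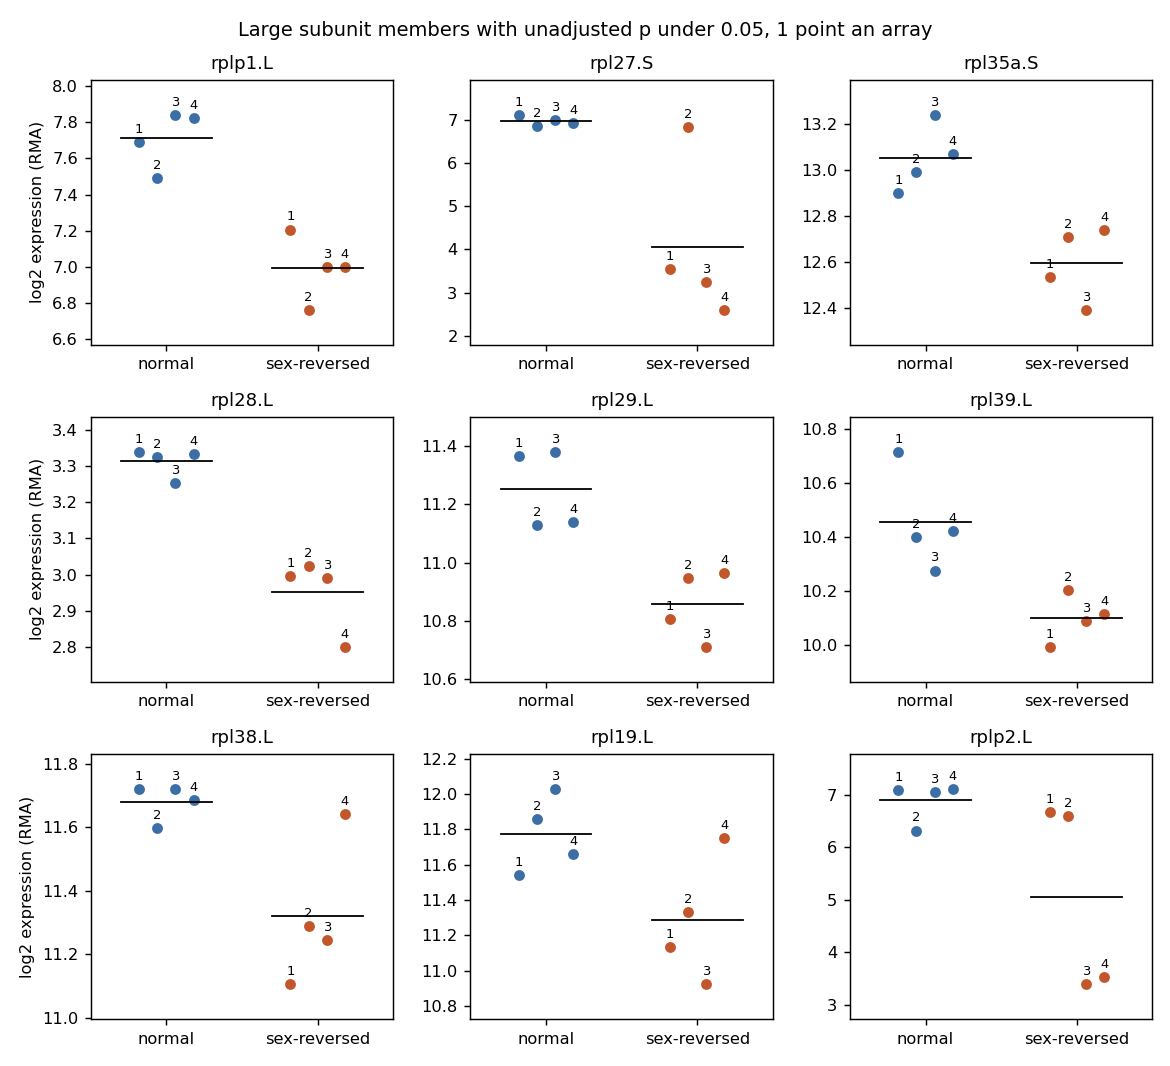
Log2 expression on each array for the 9 large subunit probe sets with an unadjusted p under 0.05, normal in blue and sex-reversed in orange, with the replicate number at each point and the group mean as a line; axes differ between panels and do not start at 0. The groups do not overlap in the first 6 panels, and rpl27.S and rplp2.L are low on only 3 and 2 sex-reversed arrays.

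The gene rpl39.L, whose protein lines the exit tunnel, measured 10.71, 10.40, 10.27 and 10.42 in normal replicates 1 to 4 and 9.99, 10.20, 10.09 and 10.11 in sex-reversed replicates 1 to 4. The groups did not overlap (log2 difference −0.35 ± 0.14, SE; adjusted p = 0.768 in limma). For rpl23a.S, at the tunnel exit, the difference was −0.43 ± 0.23 (unadjusted p = 0.101 in limma), and its groups overlapped. The gene rpl35.L, also at the exit, gave 0.30 ± 0.41 on a dim probe set, with sex-reversed replicate 4 at 6.27 and the other sex-reversed arrays at 4.74 to 5.05. Without sex-reversed replicate 4 it gave −0.05. The dim probe set of rpl4.S, whose protein narrows the tunnel, gave −0.31 ± 0.37.

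Other large subunit members with separated groups were rpl35a.S, rpl29.L, rpl28.L and rpl34.L. The brightest probe set of rpl35a.S measured 12.90, 12.99, 13.24 and 13.07 in normal and 12.54, 12.71, 12.39 and 12.74 in sex-reversed ovary (log2 difference −0.46 ± 0.14, SE; adjusted p = 0.727 by limma). The gene rpl29.L measured 11.36, 11.13, 11.38 and 11.14 in normal and 10.81, 10.95, 10.71 and 10.96 in sex-reversed ovary (−0.39 ± 0.14). Both lay near the top of the intensity range, at or above the 98.4th percentile of all probe-set means. The probe set of rpl28.L, at 3.34, 3.33, 3.25 and 3.33 in normal and 2.996, 3.02, 2.99 and 2.80 in sex-reversed ovary, was separated as well (−0.36 ± 0.12) but lay at the 7.4th percentile. The bright probe set of rpl34.L was separated by a small margin, at 11.75, 11.68, 11.87 and 11.75 in normal and 11.60, 11.65, 11.61 and 11.67 in sex-reversed ovary (−0.13 ± 0.12, unadjusted p = 0.299 in limma).

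The genes rpl19.L and rpl38.L were separated on 3 of 4 sex-reversed arrays. The gene rpl38.L, which in the mouse is needed for translation of a subset of Hox messenger RNAs, measured 11.72, 11.60, 11.72 and 11.68 in normal and 11.11, 11.29, 11.25 and 11.64 in sex-reversed ovary (log2 difference −0.36 ± 0.15, SE). For rpl19.L the values were 11.54, 11.86, 12.03 and 11.66 in normal and 11.13, 11.33, 10.93 and 11.75 in sex-reversed ovary (−0.49 ± 0.20). In both, sex-reversed replicate 4 alone lay among the normal values. Sex-reversed replicate 4 was also the highest sex-reversed array for rpl12.S, a protein at the base of the stalk, at 10.86 against 10.18 to 10.38 on the other 3 arrays (−0.34 ± 0.18). The same held for rpl18.S, at 10.10 against 9.47 to 9.73 (−0.22 ± 0.17).

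Not every large subunit gene was lower. The probe set of rpl11.S, a protein that with its partner binds the smallest rRNA of the large subunit, measured 12.93 to 13.06 in normal and 12.92 to 13.16 in sex-reversed ovary (log2 difference 0.05 ± 0.12, SE, 95% interval −0.23 to 0.33). The gene rpl14.S gave 0.00 ± 0.16 (95% interval −0.36 to 0.37) and rpl6.S gave 0.12 ± 0.16. The remaining members above 0 were rpl36a.L at 0.08 ± 0.12, rpl3l.L at 0.02 ± 0.38, rpl35.L and rpl3.L. The last, near the peptide bond forming centre, measured 5.88, 5.84, 5.74 and 4.95 in normal and 5.63, 6.59, 5.86 and 5.69 in sex-reversed ovary (0.34 ± 0.28). The probe sets of rpl3.L, rpl3l.L and rpl35.L were dim. None of these 7 reached an unadjusted p of 0.05 in limma, and those of rpl14.S, rpl3l.L and rpl35.L turned sign when single arrays were left out.

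Among small subunit genes the lowest differences were those of rps27.S, rps15.S and rps3.L. The lower of the rps27.S probe sets measured 11.64, 11.85, 11.82 and 11.49 in normal and 10.72, 11.21, 11.48 and 11.73 in sex-reversed ovary (log2 difference −0.41 ± 0.22, SE). Sex-reversed replicates 1 and 2 were low and replicate 4 was among the normal values, so that the difference was −0.87 within their array set and 0.04 within the other. The gene rps15.S, needed for export of the small subunit from the nucleus in human cells, measured 9.09 to 9.72 in normal and 8.68 to 9.11 in sex-reversed ovary (−0.41 ± 0.19). It gave −0.26 without normal replicate 3, which was the highest array. The gene rps23.L, at the decoding centre, measured 9.36 to 9.59 in normal and 9.08 to 9.43 in sex-reversed ovary (−0.27 ± 0.14).

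The remaining small subunit genes lay closer to 0 or varied more. The gene rps19.S, mutated in a human anaemia, gave −0.15 ± 0.15 (SE), rps14.S gave −0.20 ± 0.28 and rps18.L −0.30 ± 0.24. The dim probe sets of rps3.L and rps20.L gave −0.38 ± 0.40 and −0.30 ± 0.37. That of rps20.L rested on normal replicate 2, at 5.99 against 4.18 to 4.60 on the other normal arrays, and was 0.11 without it. The brighter probe set of rps6.S, the ribosomal protein phosphorylated by growth-regulated kinases, gave −0.04 ± 0.18 and rps9 gave −0.04 ± 0.19. Both turned sign when single arrays were left out.

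By homeolog ending, both groups of members lay mostly below 0. Of 25 .L probe sets 21 lay below 0, with a median of −0.27, and of 27 .S probe sets 24 lay below 0, with a median of −0.21. At an unadjusted p of 0.05 in limma the lower side held 7 .L probe sets, or 28.0%, and 2 .S probe sets, or 7.41%, against 3.17% of all probe sets. Neither order held in every setting. The .L median was the lower in each setting except without normal replicate 2, where the medians were −0.21 for .L and −0.23 for .S. With all arrays the medians of .L and .S were −0.23 and −0.24 within the large subunit and −0.30 and −0.18 within the small. Among members with a mean of 9 or more they were −0.25 and −0.17. Without sex-reversed replicate 3 the counts were 2 and 2 (2.89% of all probe sets), and without sex-reversed replicate 4 they were 6 and 5 (3.62%). Array means for .L were 8.39 ± 0.09 (SD, n = 4) for the normal and 8.11 ± 0.12 (n = 4) for the sex-reversed arrays, and they overlapped. Those for .S were 9.64 ± 0.06 (SD, n = 4) and 9.33 ± 0.12 (SD, n = 4), without overlap. The .L means include rplp2.L and the .S means include rpl27.S. The endings mostly belong to different genes, since a single pair had both homeologs named by probe sets of their own, and the difference between endings was therefore not tested over the list.

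That pair was rps3a, a small subunit protein near the messenger RNA exit. The .L probe set measured 11.12, 10.76, 11.44 and 11.25 in normal replicates 1 to 4 and 10.53, 11.06, 10.78 and 10.73 in sex-reversed replicates 1 to 4 (log2 difference −0.37 ± 0.19, SE). The .S probe set measured 10.87, 10.68, 11.11 and 10.94 in normal and 10.68, 10.97, 10.76 and 10.79 in sex-reversed ovary (−0.10 ± 0.14). The change of .L minus that of .S was −0.27 ± 0.17 (SE, 95% interval −0.67 to 0.13; adjusted p = 0.765 in limma over 622 homeolog pairs). Across the array 5.95% of these pairs reached an unadjusted p of 0.05 and 0 pairs an adjusted p of 0.05. The suffix of the .S probe set, _x_at, marks probes that may also match other transcripts, so the homeologs of rps3a may not be fully separated. Homeologous ribosomal protein transcripts are often near-identical, and values of either ending are uncertain in this respect.

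Probe sets of the same gene had the same sign. The array held 16 probe sets for 7 genes with more than 1, and all 16 lay below 0. The 3 probe sets of rpl35a.S gave −0.46 ± 0.14 (SE), −0.34 ± 0.17 and −0.21 ± 0.39, and the 3 of rps29.S gave −0.16 ± 0.19, −0.13 ± 0.23 and −0.37 ± 0.40, the last of each on a dim probe set. The pair for rps27.S gave −0.41 ± 0.22 and −0.18 ± 0.13, and the pair for rpl13a.L, a protein released from the ribosome in interferon-treated human cells, −0.08 ± 0.14 and −0.09 ± 0.14. All 12 members with a suffix for shared or possibly cross-matching probes (_s_at, _x_at or _a_at) lay below 0, with a median of −0.17, and 34 of the other 41, with a median of −0.23. The paralog gene rpl22l1.L gave −0.16 ± 0.19 and rpl22.S itself −0.29 ± 0.15.

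Other genes of ribosome production and of translation had medians nearer to 0. Of 25 probe sets of genes other than ribosomal proteins whose messenger RNAs are known in mammals for the same pyrimidine tract, 16 lay below 0, with a median of −0.09. At an unadjusted p of 0.05 in limma, reached on the lower side by 3.17% of all probe sets and on the higher side by 3.21%, the lower side held 3, hnrnpa1.L at −0.80 ± 0.14 (SE), hnrnpa1.S at −0.70 ± 0.19 and vim.S at −0.84 ± 0.34. For hnrnpa1 3 more probe sets with a .L or .S ending gave −0.25 to −0.18. The higher side held 2, pabpc1.S at 0.45 ± 0.17 and the dim eif3k.L at 0.77 ± 0.28. The elongation factor gene eef1a1.S gave −0.16 ± 0.22 on its brighter probe set, and eef1g.S and eef1g.L gave −0.22 ± 0.14 and −0.06 ± 0.25. Of 61 probe sets for ribosome biogenesis factors 28 lay below 0, with a median of 0.02. Of these, 0 reached an unadjusted p of 0.05 on the lower side and 2 on the higher, tsr1.L at 0.55 ± 0.16 and rrp7a.S at 0.65 ± 0.24, both on dim probe sets, against 3.21% of all probe sets, while their second probe sets gave 0.11 ± 0.20 and 0.18 ± 0.15. Among 10 probe sets for RNA polymerase I and smaller rRNA transcription 6 lay below 0, with a median of −0.12. They included polr1a.L, the catalytic subunit, at −0.70 ± 0.21 and those above 0 included ubtf.S, which acts at the promoters of rRNA genes, at 1.32 ± 0.32, with a second probe set at 0.28 ± 0.32, both dim. None of these passed after adjustment in limma. Whether the lists differ from the ribosomal proteins was not tested. Of 5 structural ribosomal protein genes with symbols of another form, such as rpsa and fau, 0 had a probe set with deposited values naming them alone.

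Outside the list, the named genes that followed the mean of the members most closely over the 8 arrays were hnrnpa1.L, an RNA-binding protein gene (Pearson's r = 0.948), rab5if.S (0.936), aqr.L, a splicing helicase gene (0.933), slc35e1.L (0.933) and dbi.L, an acyl-CoA binding protein gene (0.924). The probe sets of rab5if.S, aqr.L and slc35e1.L were dim, and those of hnrnpa1.L and aqr.L carried the suffix _x_at. All were picked from the whole array for this likeness, so the values are a description. The mean of the members included rpl27.S and rplp2.L, and the likeness without them was not computed. For hnrnpa1.L a brighter probe set gave a sex-reversed minus normal difference of −0.19 ± 0.24 (SE). The gene dbi.L measured 8.87, 8.92, 9.08 and 8.77 in normal and 8.62, 8.91, 8.54 and 8.45 in sex-reversed ovary. Like the mean of the members, it was highest on sex-reversed replicate 2 among the sex-reversed arrays.

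Markers of cell types that the ovary could hold, and of liver, which is not an ovarian cell type, were set beside the shift. Fewer cells of a type cannot be told apart from less RNA per cell in such samples. Of 11 oocyte probe sets 5 lay below 0, with a median difference of 0.00 and summed linear signals from 11250 to 13550 in normal and from 10230 to 13950 in sex-reversed ovary. Leukocyte markers, of which 1 of 4 was not dim (cd74.L), had 2 of 4 below 0 and sums from 141.4 to 513.1 in normal and from 102.6 to 220.6 in sex-reversed ovary. Smooth muscle markers, of which only acta2.L was not dim, had 3 of 5 below 0, with sums from 615.4 to 1090 and from 494.2 to 937.5. Granulosa and follicle markers had 3 of 5 below 0 (sums 210.7 to 287 and 223.9 to 541.2), erythrocyte markers 3 of 6 (302.4 to 422.5 and 250.3 to 334.1) and liver markers 6 of 11 (151 to 199.5 and 191.8 to 252.7). Only a gja1.L probe set was not dim among granulosa markers and only hbg2.L among erythrocyte markers, while all liver markers were dim. Outside the oocyte list the sums thus rest largely on single probe sets or on dim signal, and are weak measures of cell content. In each of these lists the sums of the groups overlapped, and their part in the ribosomal values was not tested.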

How the data were processed

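The authors deposited log2 values, 1 per probe set and ovary array, which the submitters' processing notes credit to RMA without a version. RMA includes quantile normalization, which hides a change common to most transcripts. The log base is not stated and was read as 2. Probes were designed on X. laevis, and how they read X. muelleri alleles was not tested. Symbols came from the platform annotation, and the members and gene lists were chosen with earlier results of these data known.

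All 11485 probe sets were fitted with limma 3.58.1 in R 4.3.3 (lmFit and eBayes, two-sided, no covariate, no filter), with Benjamini-Hochberg adjustment over all of them. Homeolog pairs were fitted as .L minus .S per array, each by its probe set of highest mean, over 622 pairs. Lists were described by counts and medians without a list test. Code was tested on simulated data. Figures used Python 3.11.15 and matplotlib 3.10.9.

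Values in every array are given for members whose groups do not overlap (up to 12), that span over 2 log2 within a group, or that are stalk genes, highest or lowest. Others were named after their values were seen. Settings tried were the replicate number and array set as blocks, a trended robust prior, median centring, quantile normalization, a filter on low values, array weights, 1 probe set a gene, mean homeolog values, sex-reversed replicate 4 as normal, each array left out, and looser thresholds. Counts by subunit and ending under these settings, and the values without rpl27.S and rplp2.L, were added after seeing the data.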

Additional observations from a re-analysis of the deposited data

Results flagged for a closer look

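Single arrays stood apart from the other 3 of their group by Dixon's test in 6 of 106 groups of 4 values, where chance gives about 5.3. For rplp2.L normal replicate 2 was at 6.32, against 7.04 to 7.11. For rpl21.L normal replicate 1 was at 11.68, against 11.92 to 11.94. For rpl3.L normal replicate 4 was at 4.95, against 5.74 to 5.88, and for rpl30.S the same array was at 9.9, against 10.19 to 10.23. For rpl28.L, whose signal lay below the lower quartile, normal replicate 3 was at 3.25, against 3.33 to 3.34, and sex-reversed replicate 4 was at 2.8, against 2.99 to 3.02. The mean over all members was 8.95 on sex-reversed replicate 2, against 8.71 to 8.74 on the other sex-reversed arrays. Without rpl27.S and rplp2.L it was 9.04, against 8.86 to 8.96, and was not flagged.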

How the results depend on the processing

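The median difference of the members, of both subunits, of .L and of .S kept its sign under all 17 other settings. Most members lay below 0 in each setting: 37 of 44 with 1 probe set a gene, and 41 of 53 with sex-reversed replicate 4 as normal. With sex-reversed replicate 4 counted as normal, the small subunit median was −0.10. Groups without overlap were then 12 members (3 of the small subunit), against 2.64% of all probe sets. The lower side at an unadjusted p of 0.05 in limma held 4 small subunit and 6 .S probe sets, against 3.67%. With the replicate block that side held 3 members, all of the large subunit, with 1 .L among them, against 2.95% of all probe sets. Correlations of same-numbered deviations were −0.195, 0.241, −0.193 and 0.174, and no array correlated best with its own number. Same-numbered arrays 1 and 3 lay in different array sets and 2 and 4 in the same set. These correlations therefore cannot tell whether the numbers pair the arrays. With a trended robust prior the lower side held 2 small subunit and 4 .S probe sets, against 3.16% of all probe sets. With a filter on low values 23 of 445 homeolog pairs reached an unadjusted p of 0.05 in limma, against 37 of 622 without it.

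With each array left out in turn, 0 to 2 probe sets of the array passed. Among them was rpl27.S without sex-reversed replicate 2, its only sex-reversed array at the normal level. The lower side at an unadjusted p of 0.05 in limma held 4 to 11 members, against 2.57% to 3.62% of all probe sets. These were 4 to 8 of the large and 0 to 3 of the small subunit, or 2 to 6 .L and 2 to 5 .S. Groups without overlap were 7 to 16 members, 7 to 13 of the large and 0 to 3 of the small subunit, against 3.06% to 4.01% of all probe sets. Of 844 single values of members 26 turned sign, in 14 probe sets, none among the 9 of unadjusted p under 0.05. With sex-reversed replicate 4 as normal these included rps3.L (0.29), rpl35.L (−0.32), rps14.S (0.077) and rpl8.S (0.023). They also included the dim probe sets of rps29.S (0.031), rps10.L (0.12) and rpl35a.S (0.36), and with array weights rps9 (0.012). The brightest probe set of rpl35a.S turned sign in no setting. With single arrays left out the dim rps6.S ran from −0.36 to 0.015 and its brighter probe set from −0.12 to 0.075. The dim rpl35a.S probe set ran from −0.44 to 0.12, and the rps29.S probe set of middle brightness from −0.26 to 0.0080. The others were rps20.L from −0.49 to 0.11, rpl35.L from −0.051 to 0.51, rps9 from −0.13 to 0.10, rpl3l.L from −0.24 to 0.30 and rpl14.S from −0.085 to 0.11. The causes were not tested. Detection above background could not be assessed, which limits the 4 members below the lower quartile.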
